A study of Brassica rapa with 12 samples.

Results

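The 90 genes described here, of 41020 listed for Brassica rapa, were read in stems and were almost without reads in buds. They were chosen by their read counts: under 0.2 CPM (CPM being the reads of a gene times 1e6, divided by the total of its library) in each of the 6 bud libraries, at least 5 CPM on average over the 6 stem libraries, and at least 1 read in the summed stem libraries of each genotype. The contrast between stem and bud therefore chose them and is given below as a description, without a test. The effect of silencing within stem entered the choice in part: the stem limit is a mean over both genotypes, so a gene high in a single genotype could pass through that genotype, in either direction, and a gene with no stem read in a genotype was left out.

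The libraries come from plants aged 8 weeks, grown in a climate chamber. Wild type plants were compared with transgenic plants labelled BrCHR39-silenced lines, and stems and buds were sampled from each, which gives 4 groups of 3 libraries: stem and bud of the wild type, and stem and bud of the silenced plants. The labels name no treatment of any group and no transgene in the wild type. The labels do not say how the gene was silenced, how many lines were used, what kind of bud was taken, or whether the 3 libraries of a group come from separate plants, so p-values below rest on the spread among libraries that may be technical repeats. The series presents BrCHR39 as a chromatin remodeller that promotes apical dominance. The level of BrCHR39 itself was not analysed here, because the tables list genes by identifier and its identifier is not in the labels used.

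Chromatin remodelling ATPases use the energy of ATP to slide, evict or exchange nucleosomes, and so alter how readily promoters can be reached by the transcription machinery. The stem is the axis of the shoot: it carries the vascular strands, the supporting fibres with thickened walls and a green outer layer, while a bud is a compact shoot or flower with a meristem and young organs. Apical dominance is the hold of the growing tip over the side buds, and the stem lies between them. None of the 90 identifiers was paired with a name by the gene table used here, so no role can be given to a member, and stem tissue could not be checked by marker genes.

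Library depth was 12275190 to 15693349 reads counted in genes. The members together took 0.320% to 0.325% of the reads of the wild type stem libraries and 0.147% to 0.152% of those of the silenced stem libraries. All 90 passed the filter on low counts, and 28114 genes were tested in all. By library totals, 28 members averaged under 5 CPM in silenced stems and 15 did so in wild type stems. These 43 met the stem limit through the other genotype, so that they differ follows from the choice and is described below without support from a test. From here on, CPM uses library sizes scaled by TMM, a correction for differences in composition between libraries, unless library totals are named.

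In buds the members were close to the limit of detection. Over the 6 bud libraries they held 198 reads in total, against 208270 reads in the 6 stem libraries. No member had more than 3 reads in any bud library, 24 members had none in all 6, and the median member had 2 reads over the 6. The wild type buds held 128 of these reads and the silenced buds 70. Wild type bud libraries had reads of 28 to 31 members each, and silenced bud libraries of 13 to 18. For the 24 members without a bud read, the stem level was at least 194-fold to at least 3708-fold higher than that in bud, with bud set at 3 reads over its 6 libraries (0.0299 CPM by TMM library sizes), a floor that covers counting error only. Libraries of stem had reads of 86 to 90 members each. In bulk tissue, fewer cells of a type and less RNA per cell cannot be told apart.

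**Figure D1:**
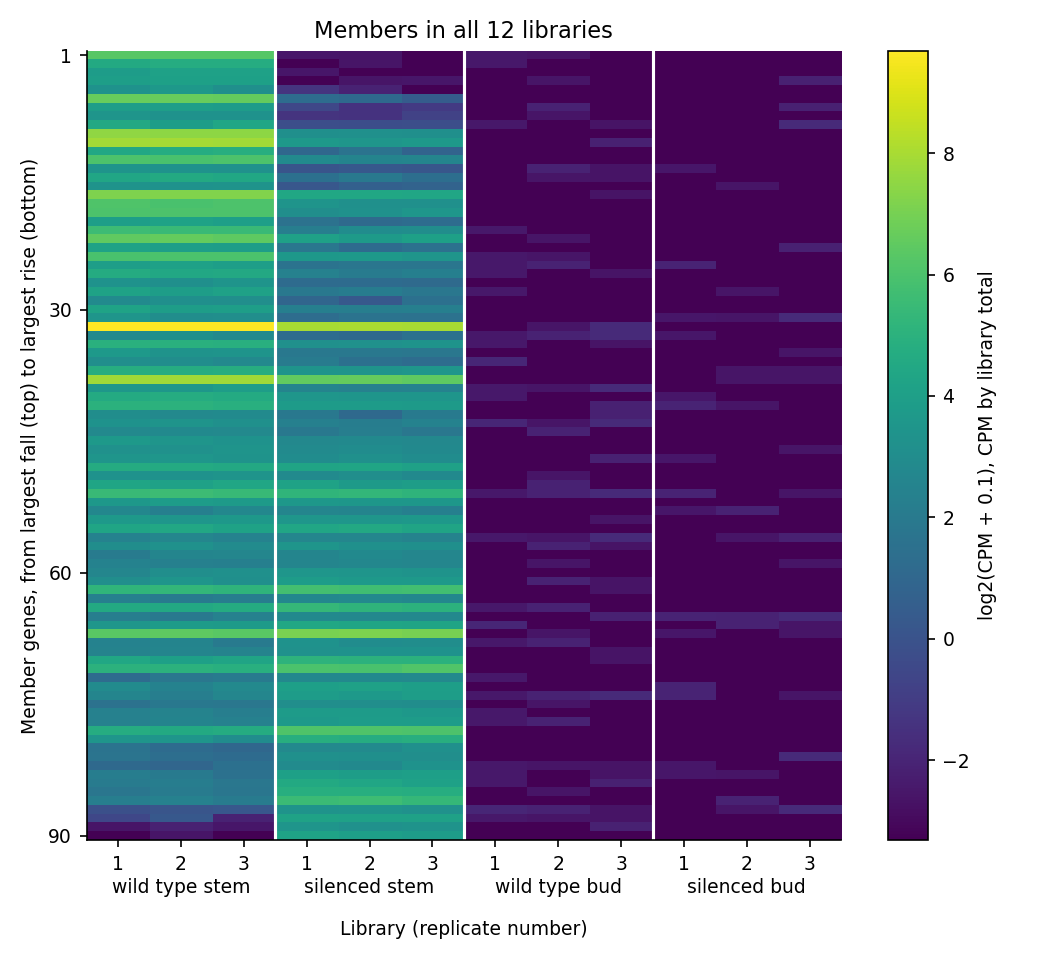
Level of the 90 members (rows, ordered by their change in silenced stem) in the 12 libraries (columns), as log2(CPM + 0.1) with CPM by library total. The 6 stem columns are bright for most rows and the 6 bud columns are dark throughout, and the first rows darken in silenced stem while the last rows brighten.

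The limits of the choice cut through a continuous range of levels. The lowest mean stem levels among the members were 5.02 CPM, and the highest among genes that failed this limit alone were 4.97 and 4.93 CPM, by library totals. The highest bud value of a member was 0.192 CPM, while the lowest value just beyond was 0.2003 CPM, and 24 further genes that met the other conditions had their highest bud value between 0.2 and 0.3 CPM. A further 6 genes met all limits but had no stem read in a genotype. Of these, 5 had reads in wild type stems alone, at 16.3 to 89.2 CPM on average by TMM library sizes, and 1 in silenced stems alone, at 25.5 ± 2.19 CPM (SD, n = 3) on the same scale. They are not counted among the members.

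Members ranged widely in level. Mean levels in wild type stems ran from 0.0250 to 940 CPM with a median of 12.7 CPM, and 58 members reached 10 CPM and 7 reached 100 CPM. In silenced stems they ran from 0.0263 to 295 CPM with a median of 9.86 CPM, and 44 members reached 10 CPM and 3 reached 100 CPM. The 10 most abundant members made up 63.1% of the summed level in the wild type and 54.8% after silencing, and 3 genes belonged to both groups of 10.

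The most abundant member by reads was also the most abundant per length of gene. Bra040857 (555 coding bases) stood at 931, 946 and 944 CPM in the 3 wild type stem libraries and at 293, 301 and 292 CPM in the 3 silenced ones. The groups lay far apart, with every silenced library under every wild type library, and the gene kept the first rank in both genotypes. Per length it stood at 1478 ± 14.02 FPKM (reads scaled to coding length and library total, SD, n = 3) in wild type stems and 459 ± 8.39 FPKM in silenced stems. The level was 3.19-fold lower in silenced stems (log2 fold change -1.67, SE 0.026, adjusted p = 5.2e-110, quasi-likelihood test of edgeR, Benjamini-Hochberg adjusted over all genes tested). In buds this gene had 4 reads, all in wild type libraries, against 47620 in stems.

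Bra027027, with a coding length of 468 bases, was the next by mean level over the 6 stem libraries, both by reads and per length. It stood at 262, 265 and 257 CPM in the wild type and at 109, 113 and 100.3 CPM in silenced stems, so the groups did not overlap. Per length these are 488 ± 6.92 FPKM and 198 ± 12.3 FPKM (SD, n = 3). The gene fell 2.44-fold (log2 fold change -1.28, SE 0.038, adjusted p = 8.3e-71 by edgeR). Its 2 bud reads both came from silenced libraries. Over all members the mean FPKM in stem ran from 2.37 to 969 with a median of 12.9.

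Silencing went with lower levels of more members than higher ones. At an adjusted p under 0.05 and a change of 2-fold or more, 42 of the 90 members, 46.7%, fell in silenced stems, where 14.3% of all tested genes fell by that much. Another 20 members, 22.2%, rose by 2-fold or more, against 14.4% of all tested genes. The 43 members that met the stem limit through a single genotype hold 26 of these falls and 13 of these rises. Those follow in part from the choice, so the pooled shares are given as a description. Counting changes of any size, 51 members fell, 56.7% against 32.1% of all tested genes, and 31 rose, 34.4% against 37.6%. The remaining 8 members did not pass the test. The median log2 fold change of the members was -0.54, with a range from -10.46 to 9.12 and quartiles of -2.48 and 0.75, beside a median of 0.05 over all tested genes. A wider class of stem genes without bud signal, which holds these members, was already known from earlier work on the same libraries to be lowered more often than raised, so the direction here is no independent support for that.

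**Figure D2:**
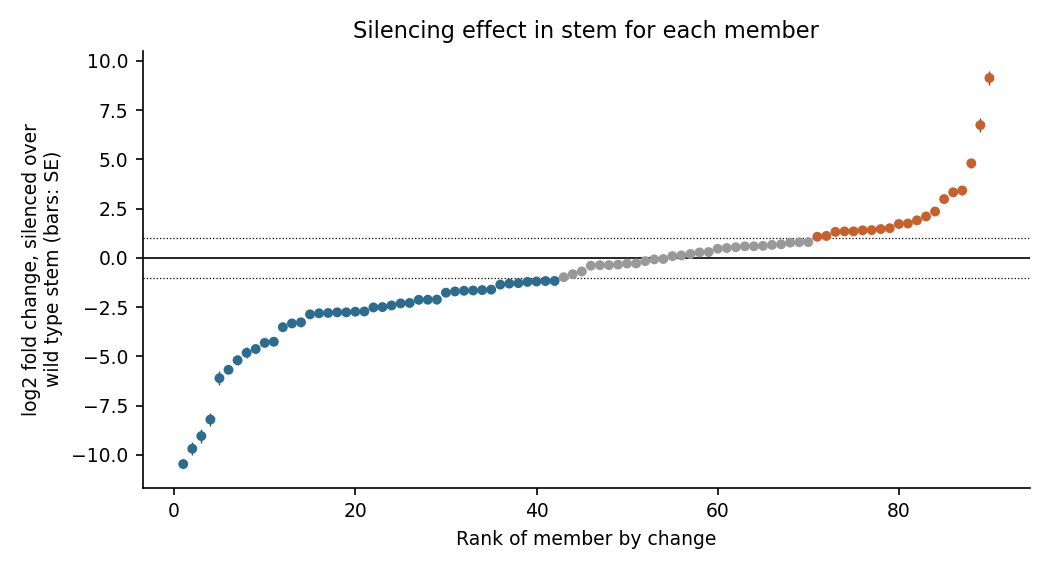
Log2 fold change of each member between silenced and wild type stem, ranked, with its approximate SE as a bar, where dotted lines mark 2-fold. The 42 members in blue fell by 2-fold or more, the 20 in orange rose by 2-fold or more and the 28 in grey did neither.

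All tested genes carry no limit on the stem level, so the members were also set beside the other 17429 tested genes whose stem libraries met the same mean of 5 CPM. Of those, 11.4% fell and 11.7% rose by 2-fold or more. The sizes of change also lay apart: the median absolute log2 fold change was 1.63 for the members, 0.49 for these other stem genes and 0.59 for all tested genes. The members had lower levels than these other stem genes, with a median of 11.3 CPM over the 6 stem libraries against 25.5 CPM. The wild type and silenced libraries did not overlap for 83 members, 92.2%, against 70.3% of all tested genes and 80.5% of the other stem genes. Both this share and the larger sizes of change follow in part from the choice. It let in 43 members through a single stem genotype. No test of the list as a whole was made.

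The shares were smaller among the members that met the stem limit in each genotype by itself, a class set after the data were seen. Of the 47 members that averaged at least 5 CPM in each stem genotype, 16, or 34%, fell by 2-fold or more and 7, or 14.9%, rose, with a median log2 fold change of -0.17. Of the other 15659 genes with at least 5 CPM in each stem genotype, 8.25% fell and 9.62% rose. The remaining 43 members hold 26 of the falls and 13 of the rises of 2-fold or more.

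The summed level of the members was lower in every silenced stem library than in any wild type one. It was 3704, 3723 and 3655 CPM in the wild type libraries and 1760, 1745 and 1698 CPM in the silenced ones. The ratio of the means was 0.469. Without Bra040857, which alone made up 25.5% of the sum in wild type stems, the sums were 2754 ± 37.0 and 1439 ± 30.9 CPM (SD, n = 3) and the ratio was 0.523. The 42 members that fell 2-fold or more went together from 3054 ± 20.9 to 640 ± 6.99 CPM, while the 20 that rose went from 139 ± 6.44 to 492 ± 7.31 CPM. These groups were formed by that same change, so the direction of their sums was fixed by the grouping. The other 28 summed to 501 ± 10.3 CPM in wild type and 602 ± 20.1 CPM in silenced stems.

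The members that fell spanned every size from slight changes to near loss. Among the falls, 11 members, 12.2% of all, went down 16-fold or more, where all tested genes gave 2.59% and the other genes at 5 CPM or more in stem 1.03%. These 11 had mean levels of 11.7 to 273 CPM in the wild type and 0.0263 to 14.3 CPM after silencing, and their coding lengths ran from 465 to 2256 bases. Their median after silencing was 0.409 CPM, so most met the stem limit through wild type stems alone. Nothing is therefore read from the share of 12.2%. Another 18 members fell between 4-fold and 16-fold (4.03% of all tested genes), from 9.36 to 170 CPM in wild type to 1.17 to 24.4 CPM in silenced stems. A further 13 members fell between 2-fold and 4-fold (7.69% of all tested genes), Bra040857 and Bra027027 among them. Of these 42 falls, 26 were of members under 5 CPM in silenced stems by library totals, with some in each size of fall. Nothing is therefore read from the shares of the smaller sizes either. In all 42 the libraries of the genotypes did not overlap, as in 70.3% of all tested genes. Grouping by called changes of 2-fold or more favours this. The 9 smaller falls (17.8% of all tested genes) were called at wild type levels of 8.01 to 52.1 CPM. Of the members, 7 reached 100 CPM in wild type stems and all 7 fell by 2-fold or more, as did 19.8% of the other genes at that wild type level. Picking by the wild type level favours falls. Of the 3 members that reached 100 CPM in silenced stems, 2 fell by 2-fold or more and none rose by as much, where 4.68% of the other genes at that silenced level fell and 20.3% rose. The third of these, Bra009111, was singled out after its values were seen. It rose from 96.1 to 155 CPM, and its log2 fold change was 0.69 (SE 0.043).

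Of the falling members, 5 were reduced to at most 10 reads over the 3 silenced stem libraries. The largest fall was that of Bra032468, with a coding length of 1680 bases. It had 1207, 1182 and 1080 reads in the wild type stem libraries and 1, 1 and 0 reads in the silenced ones. At 88.7 ± 2.62 CPM (SD, n = 3) it was well above the median member of the wild type, and its 2 reads over 3 silenced stem libraries stand beside 2 reads over 6 bud libraries. The ratio of wild type to silenced was 1633, with a 95% counting interval of 452 to 13490 that is wide because it rests on 2 reads. Its level met the limit through wild type stems alone, so no test is given.

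Bra034670, with a coding length of 525 bases, followed the same course at a lower level. It had 367, 404 and 378 reads in wild type stems and 0, 1 and 0 in silenced stems, or 29.4 ± 1.39 CPM (SD, n = 3) against 0.0263 CPM. The ratio was 1082 with a counting interval of 194 to 42766, from 1 read in silenced stems. Here too the wild type level alone met the limit, and no test is given. Both genes stayed among the members through these last reads, since genes with none in silenced stems were left out by the rule.

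**Figure D3:**
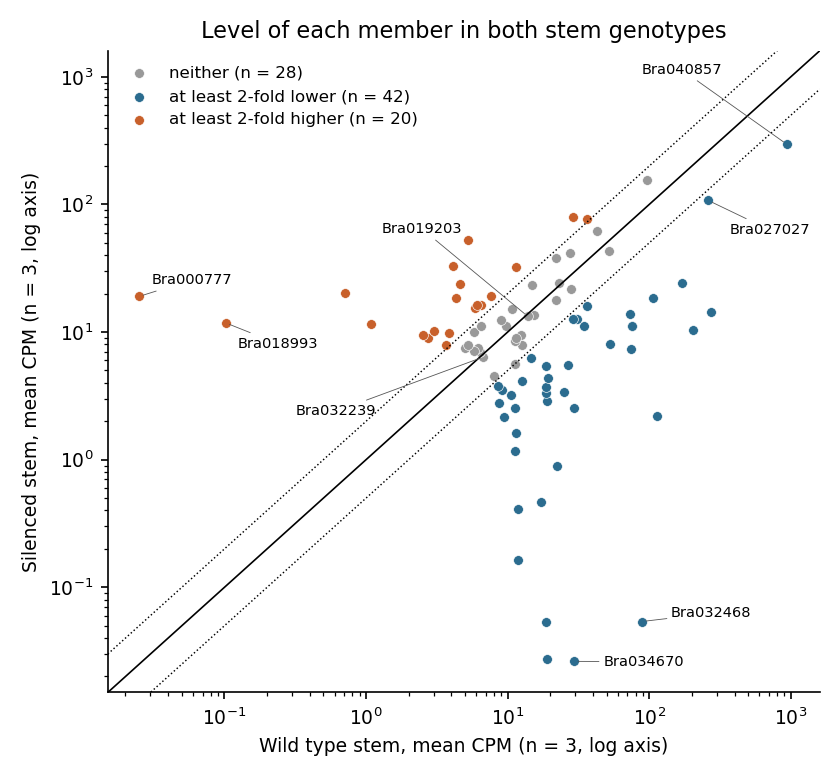
Mean CPM of each member in wild type stem (horizontal) and silenced stem (vertical), both on log axes, each the mean of 3 libraries, where the solid line marks equal levels and dotted lines 2-fold. Members that fell form a tail down to 0.0263 CPM in silenced stem, and the members that rose by 2-fold or more reach at most 79.5 CPM.

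The members that rose started mostly from low levels, which follows in part from the choice. Of these, 3 members, 3.33% of all, went up 16-fold or more, where all tested genes gave 1.08% and the other genes at 5 CPM or more in stem 0.384%, with wild type levels of 0.0250 to 0.705 CPM and silenced levels of 11.8 to 20.1 CPM. All 3 met the stem limit through silenced stems alone, so nothing is read from that share. Another 5 members rose between 4-fold and 16-fold (3.67% of all tested genes), from 1.08 to 5.26 CPM in wild type to 11.6 to 52.8 CPM in silenced stems. A further 12 members rose between 2-fold and 4-fold (9.69% of all tested genes), which stood at 2.52 to 36.5 CPM in wild type and 7.98 to 79.5 CPM in silenced stems. Of these 20 rises, 13 were of members under 5 CPM in wild type stems by library totals. All 5 rises between 4-fold and 16-fold were among those 13, so nothing is read from these shares either. In these 20 too the genotypes did not overlap, as in 70.3% of all tested genes, which grouping by called changes again favours. The 11 smaller rises (23.2% of all tested genes) were called at wild type levels of 5.02 to 96.1 CPM.

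The strongest rises came from near absence. Bra000777, with a coding length of 402 bases, had 0, 1 and 0 reads in wild type stems and 260, 240 and 200 reads in silenced stems. It had no read in any bud library, so 700 of its 701 reads in the whole series lay in silenced stems. The ratio of silenced to wild type was 743 with a counting interval of 133 to 29407. Bra018993, with a coding length of 612 bases, had 1, 2 and 1 reads in wild type stems and 153, 139 and 142 reads in silenced stems. This is a ratio of 115, with a counting interval of 44.7 to 425. The gene stood at 11.8 ± 0.871 CPM (SD, n = 3) in silenced stems and had 2 reads in the 6 bud libraries, both in wild type. Both genes met the stem limit through silenced stems alone, so no test is given for them.

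The 8 members that did not pass the test lay between 5.80 and 22.9 CPM in wild type stems and between 6.38 and 24.4 CPM in silenced stems, and the smallest adjusted p among them was 0.141 by edgeR. Among all tested genes 30.3% did not pass. Bra019203, with a coding length of 939 bases, was the least changed. It stood at 14.8, 12.8 and 13.96 CPM in wild type stems and at 13.1, 12.9 and 13.8 CPM in silenced stems, so the groups overlapped (log2 fold change -0.06, SE 0.127, adjusted p = 0.708, edgeR). Bra032239 (534 coding bases) stood at 7.42, 5.47 and 7.34 CPM in wild type and 6.89, 6.70 and 5.55 CPM in silenced stems, which overlapped too (log2 fold change -0.08, SE 0.182, adjusted p = 0.733, edgeR). A missed threshold does not show that these levels were equal, and for Bra032239 the counting interval of the ratio of wild type to silenced ran from 0.880 to 1.26.

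**Figure D4:**
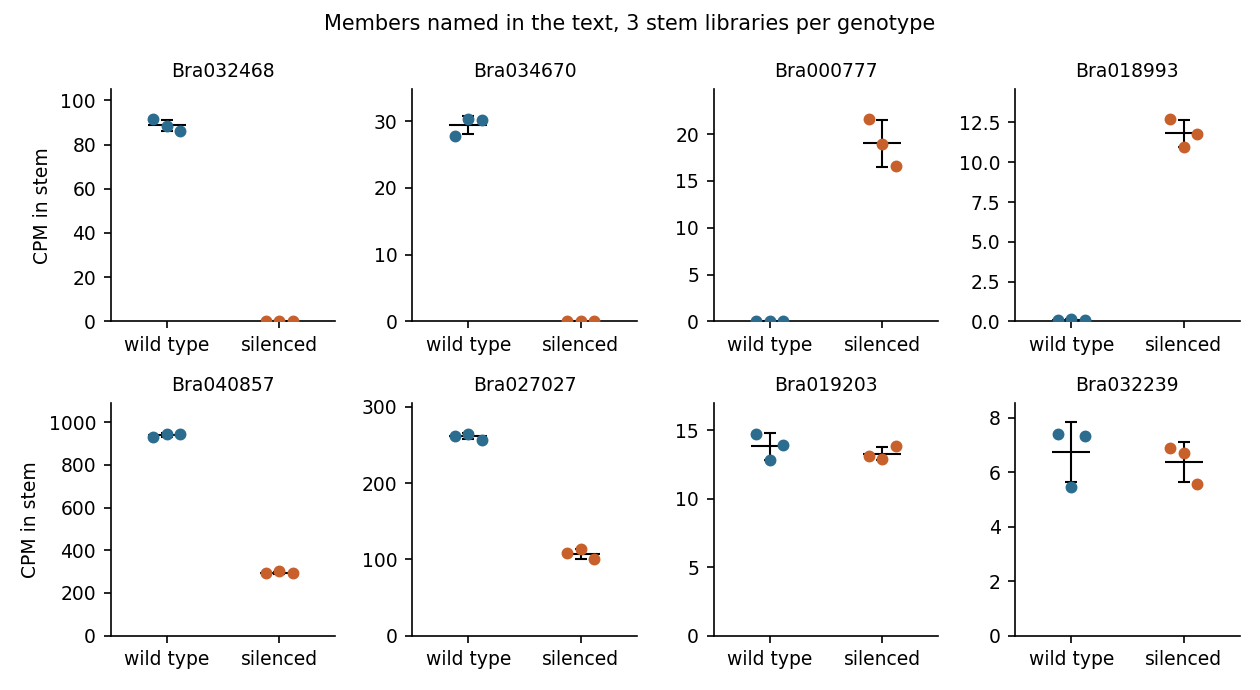
CPM of the 8 members picked by the naming rule in the 3 wild type and 3 silenced stem libraries (points), with the mean and SD as bars, on axes that start at 0 and differ between panels. The genotypes overlap in the panels of Bra019203 and Bra032239 and in no other panel.

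The share of members that fell was highest among the abundant ones, a difference that was not tested. Of the 19 members at 30 CPM or more over the 6 stem libraries, 13 fell and 2 rose by 2-fold or more, with a median log2 fold change of -2.52, where 10% of the other stem genes at that level fell and 11.9% rose. Of the 38 members between 10 and 30 CPM, 15 fell and 10 rose, with a median of -0.32, where 11.3% and 10.7% of the other stem genes did. Of the 33 members under 10 CPM, 14 fell and 8 rose, with a median of -0.40, where 14.9% and 13.5% of the other stem genes did. All of these 14 and 8 met the stem limit through a single genotype, so their changes follow from the choice. The shares at the higher levels follow from it in part. Across the 90 members the log2 fold change and the mean stem level had a Spearman's rho of -0.165, which describes genes that share the same 6 libraries.

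Members had shorter coding sequences than other genes read in stem. Their coding length ran from 189 to 3045 bases with a median of 945 bases and quartiles of 537 and 1178 bases. The other tested genes with at least 5 CPM in stem had a median of 1164 bases and quartiles of 738 and 1731 bases, and all tested genes had a median of 1098 bases. Of the members, 29 or 32.2% had at most 609 bases, as had 20.03% of all tested genes and 17.4% of those other stem genes. These differences in length were not tested. The limit that chose the members is set on CPM, which is not corrected for length. Within the members, 13 of the 29 short ones fell and 9 rose by 2-fold or more, beside 11.5% and 18.3% of the other stem genes of that length. Of the 22 with over 1200 bases, 12 fell and 4 rose, beside 9.91% and 10% of the other stem genes. Many of these short and long members met the stem limit through a single genotype, so their counts follow in part from the choice. The rho between coding length and log2 fold change was -0.116 over the members and -0.009 over all tested genes, again a description across genes.

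The replicate libraries of a group differed little for the members. The median coefficient of variation between the 3 libraries was 8.98% in wild type and 7.69% in silenced stems. The variance between libraries was 1.87 times that of counting alone for the members in wild type stems and 1.47 times in silenced stems, beside 1.63 and 1.61 times for the other genes with at least 5 CPM in stem.

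The share of falling genes was graded by the level in bud, over all genes with at least 5 CPM in stem. The bud libraries are on neither side of the contrast between the stem genotypes, but the fit shares its scaling, filter and estimate of spread with them. Among the 96 genes under 0.2 CPM in every bud library, which are the members and the 6 genes read in a single stem genotype, 49% fell and 21.9% rose by 2-fold or more. For a highest bud value of 0.2 to 1 CPM the shares were 49.3% and 19.2% of 219 genes, and for 1 to 5 CPM they were 29.1% and 20.7% of 939 genes. At 5 to 20 CPM 15.2% fell and 11.4% rose of 4243 genes, and at 20 CPM or more 7.9% fell and 11% rose of 12022 genes. The share of falls was close to 49% in both classes with the least bud signal and went down in each class after them. The median log2 fold change went from -0.91 and -0.97 in the first pair of classes through -0.19 and -0.01 to 0.11 in the last. In the first class, 43 members and the 6 further genes met the stem limit through a single genotype, so its shares follow in part from the choice. Such genes were not set apart in the other classes. The bud classes were set after the data were seen, and their differences were not tested.

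**Figure D5:**
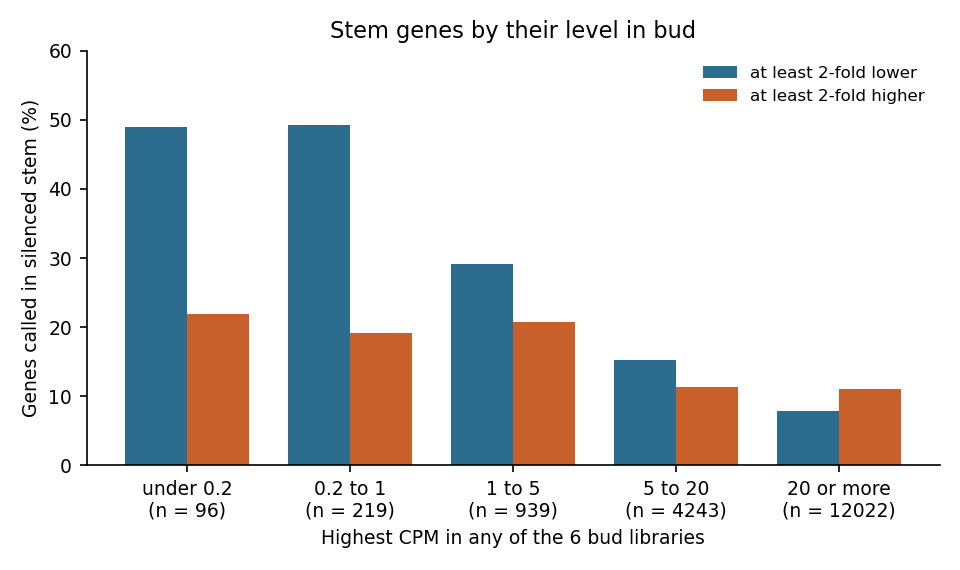
Percentage of genes called at least 2-fold lower (blue) or higher (orange) in silenced stem, among tested genes with at least 5 CPM on average in stem, by their highest CPM in any bud library. Falls go from 49% in the class with least bud signal to 7.9% in that with most, and rises from 21.9% to 11%.

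The mirror rule, with stem and bud exchanged, found 227 genes read in buds and almost without reads in stems. Its bud limit is likewise a mean over both genotypes, so a gene high in a single genotype could pass through it. How many did so is not given here, and the shares below may follow in part from that choice. In silenced buds 113 of these, 49.8%, fell by 2-fold or more and 37, 16.3%, rose, where 23.8% of all tested genes fell and 13.4% rose. Their median log2 fold change was -0.99, beside -0.03 over all tested genes in bud. Of these bud genes 72, or 31.7%, fell 8-fold or more, against 7.87% of all tested genes in bud. For the stem members such falls numbered 14, 15.6%, against 3.74% of all tested genes in stem. Rises of that size numbered 7 among the bud genes, 3.08%, and 5 among the stem members, 5.56%, beside 0.925% and 2.04% of all tested genes. The summed level of the bud genes was 9474 to 9562 CPM in wild type buds and 6433 to 6495 CPM in silenced buds. The difference between both classes was not tested.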

How the data were processed

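The authors deposited a table of read counts per gene, not normalized, for 41020 genes in 12 libraries, and an FPKM table that the authors derived from these counts. The submitters' processing notes name featureCounts 2.0.1, TopHat2, HISAT2 2.1.0 and Bowtie 1.0.1 and do not say what each did. Genome build, annotation and strand setting: not given in the sources used here. Reads of near-identical copies may have been split or lost in counting. Count and FPKM gave a whole gene length, within a relative tolerance of 1e-06, for 35651 genes. All were multiples of 3 and are therefore coding lengths.

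Raw counts were tested with the quasi-likelihood test of edgeR 4.0.16 under R 4.3.3, after filterByExpr (minimum count 10) and TMM scaling, in a single fit of the 12 libraries by group. A gene was called where its two-sided p, adjusted by Benjamini-Hochberg over 28114 genes, was under 0.05. SEs are the log2 fold change divided by the root of the F statistic, an approximation. Counting intervals of ratios are exact conditional binomial 95% intervals of the summed reads and cover counting error only. The code was tested on simulated counts.

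The members and lists were chosen with earlier results of these data known. The genes named were, by rule, the 2 largest falls and rises among called members whose genotypes did not overlap, the 2 highest in CPM and in FPKM, and the 2 least changed. The reference gene table (CAAS_Brap_v3.01) paired 1 of the 41020 identifiers with a name and no member, so the planned marker lists of other cell types could not be applied, and no sequences or coordinates are given. Alternatives were other scalings, no filter, DESeq2 1.42.0, stem libraries alone, the replicate number as a block, limma 3.58.1 on log2 FPKM with a pseudocount of 1 or 0.1 (genes reaching 1 FPKM in 3 libraries), leaving out each stem library, and other limits for the members, of which 5 CPM in each stem genotype was added after the data were seen.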

Additional observations from a re-analysis of the deposited data

How the results depend on the processing

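The counts of members that fell or rose stayed within 1.5 times of 42 and 20 (2-fold or more) and of 51 and 31 (any size) under every other scaling, filter, tool and left-out stem library tried. Leaving out each stem library gave 41 to 43 falls and 19 to 20 rises of 2-fold or more, 48 to 51 falls and 30 to 31 rises of any size, medians of -0.60 to -0.50 and summed ratios of 0.466 to 0.475. The ratio was 0.458 with DESeq2's size factors. Upper-quartile scaling gave a ratio of 0.453 and a median of -0.60, and the 6 stem libraries alone gave 0.444 and -0.63. No scaling moved the median of all genes by more than 0.081 on the log2 scale. DESeq2 itself gives no summed ratio of its own.

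Other limits change the number of members by construction. With 0 bud reads (24 members), 12 fell and 5 rose by 2-fold or more, 14 and 7 at any size, with a median of -1.23 and a ratio of 0.439. With 0.5 CPM in bud (180 members) these were 85 and 35, 111 and 53, -0.73 and 0.609. With 2 CPM in stem (170 members) they were 71 and 42, 88 and 59, -0.44 and 0.4999. With 10 CPM in stem (43 members) they were 24 and 7, 27 and 13, -1.28 and 0.422. With 5 CPM in each stem genotype, a limit chosen after the data were seen (47 members), they were 16 and 7, 23 and 16, -0.17 and 0.466. With the 6 genes read in a single stem genotype, the median was -0.91 and the ratio 0.452. Over these limits the shares of 2-fold falls ran from 34% to 55.8% and of rises from 14.9% to 24.7%.

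With the replicate block 42 members fell and 20 rose by 2-fold or more, as without it. The same-numbered stem libraries shared only a number: their deviations correlated at -0.006 to 0.010, and of the wild type stem libraries only replicate 2 correlated best with its own number. The 8 members named by rule kept their side of the threshold in all alternatives. Bra032239, not called, lay between -0.21 and 0.01. With the larger pseudocount limma gave a log2 fold change of -5.52 for Bra032468. The mean of this gene in silenced stems, 0.0277 FPKM, lies far under that pseudocount, which shrinks the change. With 3 libraries against 3, an exact permutation test cannot go below p = 0.10.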

Other observations

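Stem genes absent from the buds of a single genotype lay on the edge of the list. With the same limit of 5 CPM in stem, 30 genes stayed under 0.2 CPM in every wild type bud library and exceeded it in at least 1 silenced bud library. Their mean level in silenced buds had a median of 0.213 CPM, with 5 genes at 1 CPM or more, 3 at 5 CPM or more and a highest value of 40.8 CPM. In silenced stems 15 of these, 50%, fell by 2-fold or more and 4, 13.3%, rose by as much, beside 14.3% and 14.4% of all tested genes.

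The reverse class was larger: 182 genes stayed under 0.2 CPM in every silenced bud library and exceeded it in at least 1 wild type bud library. Their mean level in wild type buds had a median of 0.771 CPM, with 74 genes at 1 CPM or more, 14 at 5 CPM or more and a highest value of 58.5 CPM. In silenced stems 70 of these, 38.5%, fell by 2-fold or more and 59, 32.4%, rose by as much, beside 14.3% and 14.4% of all tested genes. These classes were chosen after the data were seen, and the bud levels chose them, so no test is given. Their stem limit is again a mean over both genotypes, so genes high in a single stem genotype could pass through it.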
